A study of Mus musculus with 14 samples.

Results

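Microglia of microbead-injected mouse retinas were compared with microglia of sham-injected retinas. The 2 groups were taken by the titles of the libraries, 3 from microbead-injected and 4 from sham-injected retinas, which makes 7 of the 14 libraries of the series. The comparison asks how these cells differ after microbeads beyond the injection procedure itself. Microglia are the macrophages that live in the retina and brain. In healthy tissue they keep a homeostatic program that depends on TGF-beta and includes the purinergic receptor P2ry12, the fractalkine receptor Cx3cr1 and Tmem119. In neurodegeneration they can take up another state, called MGnD or disease-associated, which is known for Apoe, Trem2 signalling, lysosomal and lipid genes and lower homeostatic genes. Microbeads injected into the eye are widely used to block the outflow of aqueous humour and raise eye pressure, as a model of glaucoma.

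Both groups were wild-type C57BL/6 mice aged 12 weeks. The labels give the treatment as microbead injection with the description glaucoma, or sham injection with the description sham control, and name no interval after injection. All cells were sorted as CD11b+, Ly6c- and Fcrls+ after a Percoll gradient, which yielded 100 to 600 cells per retina, and their RNA was read by SMART-Seq2, which copies whole transcripts from few cells. The other libraries of the series came from 4 naive and 3 contralateral retinas. They entered the gene filter, the scaling of levels and the estimate of the spread, but not the contrast tested. Nothing in the labels says whether the retinas of a group came from separate mice, so p-values measure the spread between these libraries. In a bulk library, fewer cells of a type and less RNA per cell cannot be told apart.

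Levels are given as CPM, that is expected counts per M after TMM scaling, and always in the order of libraries 1 to 3 for microbead and 1 to 4 for sham. The microbead libraries held 1.34, 10.7 and 13.9 M assigned reads and the sham libraries 8.502 to 13.6 M. Reads fell on 10167, 13773 and 14969 genes in microbead and on 14587 to 15256 genes in sham, so microbead 1 stood apart in depth and in genes read. Over 7349 genes, the median SD of log2 CPM was 0.98 between the microbead libraries and 0.47 between the sham libraries. The sort markers were present in each library: Itgam, which encodes CD11b, stood at 359.8, 304 and 464 CPM in microbead and 347, 536, 365 and 461 CPM in sham, and Fcrls at 468, 706 and 999.6 CPM in microbead and 501, 811, 474 and 715 CPM in sham. Ly6c1 and Ly6c2 had no read in either group. Xist, the RNA of the inactive X chromosome, stood at 828, 1118 and 1124 CPM in microbead and 1583, 1695, 1456 and 1449.7 CPM in sham, lower in each microbead library than in each sham library. The Y-linked genes Eif2s3y and Uty had no read. Ddx3y, also Y-linked, had 1 count, in microbead 2. Kdm5d had 2 counts in microbead 3 and 3, 6, 2 and 6 counts in sham. With Y-linked reads this few, the libraries of both groups carried a female pattern.

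The groups differed by transcript length. For each library, log2 CPM was taken relative to the sham mean over genes of at least 10 CPM, and the median of the 1347 genes longer than 4000 bases was subtracted from that of the 877 genes of at most 1000 bases. The difference was 1.73, 0.65 and 1.10 in the microbead libraries and lay between -0.12 and 0.08 in the sham libraries. It was 0.40, 0.85 and -0.31 in the contralateral libraries, so the shift was not seen in microbead libraries alone. Among genes of at most 1000 bases, 18.7% had every microbead library above every sham library and 3.14% had the reverse, whereas among genes longer than 4000 bases the shares were 1.85% and 9.70%. For this reason most fold changes of the fit are set beside their value after a smooth trend of log2 CPM on length had been removed from each library, called the length-adjusted value. The part of the depth of microbead 1 in the results was not tested, apart from leaving that library out.

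**Figure D1:**
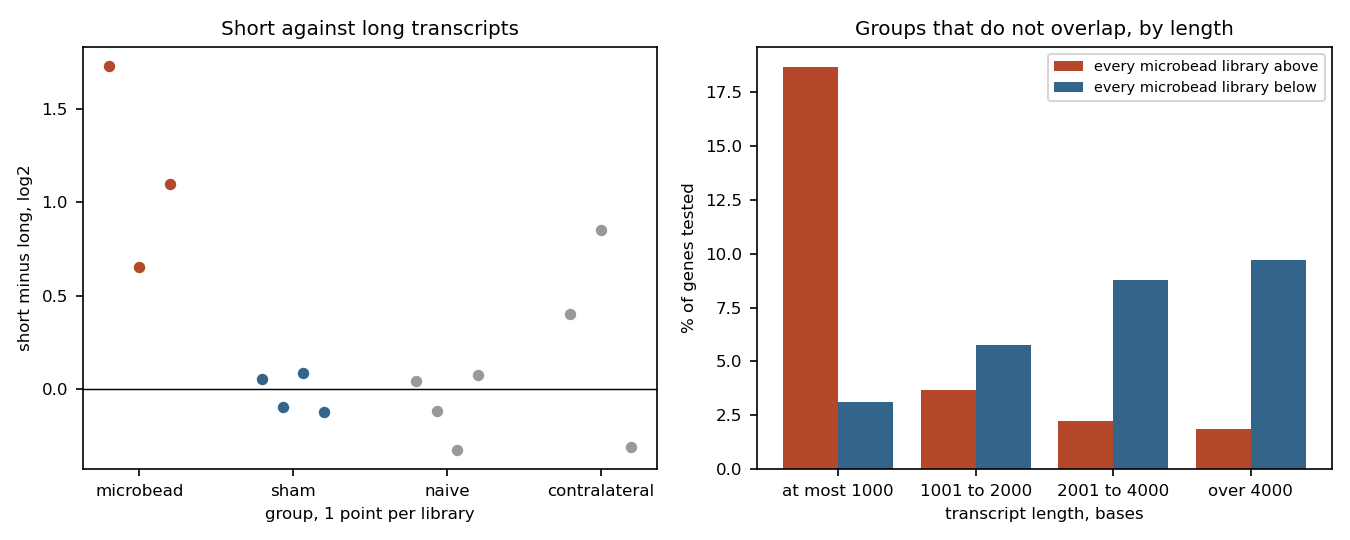
Left, the difference between the median log2 level of short transcripts (at most 1000 bases) and long transcripts (over 4000 bases), 1 point per library. Right, the percentage of tested genes in each length class whose microbead libraries all lie above (red) or below (blue) all sham libraries; the 3 microbead libraries stand above all sham and naive libraries, contralateral 2 (0.85) stands above microbead 2 (0.65), and short genes make up most of the higher genes.

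Of 14279 genes tested, 2 rose in microbead at an adjusted p under 0.05 (edgeR, quasi-likelihood), Apoe and Cd72 (0.014% of genes tested). No gene passed as lower (0%), while 639 genes had an unadjusted p under 0.05 as higher (4.48%) and 753 as lower (5.27%). With no filter, over 25656 genes, edgeR called 97 genes higher and 42 lower, and DESeq2, run on as many genes, called 325 and 286. With the filter kept, limma voom with quality weights called 85 and 6. Apart from the fit, 730 genes had every microbead library above every sham library (5.11% of genes tested) and 1011 had every microbead library below (7.08%). After length adjustment these shares were 4.72% and 6.09%. The median log2 fold change over all genes was -0.12, and 0.04 after length adjustment. With 3 against 4 libraries, an exact two-sided permutation test of a single gene cannot go below p = 0.0571, so none was used.

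Apoe (chromosome 7, 19696109 to 19699188, minus strand, a protein-coding gene) encodes apolipoprotein E, the lipid carrier that marks the MGnD state. It stood at 19622, 53582 and 24312 CPM in the microbead libraries and at 3284, 4928, 5568 and 3268 CPM in the sham libraries. The lowest microbead library was above the highest sham library, and microbead 2 was the highest of all. The means were 32505 ± 18403 (SD, n = 3) and 4262 ± 1168 CPM (SD, n = 4), a 7.63-fold difference, with a log2 fold change of 2.93 (adjusted p = 0.0366, SE 0.44). Length adjustment left 2.78. Apoe is also made by Muller glia and astrocytes, whose marker genes Gfap, Sox9 and Pax2 had no read in either group. Another Muller marker, the glutamate transporter Slc1a3, stood at 31.6, 29.2 and 49.1 CPM in microbead and 70.7, 78.3, 37.3 and 61.1 CPM in sham, and Glul at 357, 234 and 189 CPM in microbead and 312, 157, 267 and 283 CPM in sham. Both genes overlapped between the groups, and in Slc1a3 microbead 1 and 2 lay under all sham libraries. Dbi also overlapped, at 284, 43.2 and 40.7 CPM in microbead and 12.7, 27.3, 49.6 and 7.01 CPM in sham. Dbi, Aldh1l1, Vim and Rlbp1 had positive log2 fold changes (2.33, 3.55, 0.97 and 0.72). Kcnj10 and Aqp4 had negative ones (-2.89 and -5.67). Over all 18 markers of these glia, 4 had no read, 9 were tested and Apoe alone lay above. Without Apoe, which makes up nearly all of it, their summed level ran from 355 to 757 CPM in microbead and from 368 to 419 CPM in sham, and the part of glial RNA in the result was not tested.

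Cd72 (chromosome 4, 43446462 to 43454628, minus strand, protein-coding) encodes a C-type lectin receptor with an inhibitory motif, best known on B cells. It stood at 211, 405 and 638 CPM in microbead and at 78.5, 86.3, 62.4 and 58.5 CPM in sham. Each microbead library was above each sham library, and the sham libraries lay close together. The means were 418 ± 214 (SD, n = 3) and 71.4 ± 13.2 CPM (SD, n = 4), a 5.85-fold difference, and the log2 fold change was 2.55 (adjusted p = 0.0429, SE 0.41), or 2.52 with length adjusted, where Cd72 no longer passed (adjusted p = 0.0682, edgeR) and Apoe did (0.0243). Neither gene passed when any of the 4 sham libraries was left out, with the 7 libraries alone, with at least 50 counts in 3 libraries or with the replicate block. Both passed without microbead 1, without microbead 2 and without microbead 3. Over the 17 alternatives tried, the log2 fold change of Apoe stayed between 2.34 and 3.17 and that of Cd72 between 2.09 and 2.84.

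Among the next genes by p, none of which passed, were C4b, Ifi30, Fcer1g and Ifi27l2a. C4b, a complement component that binds covalently to targets, stood at 939, 930.3 and 459 CPM in microbead and 35.9, 97.1, 10.9 and 29.0 CPM in sham, with a log2 fold change of 4.17 (adjusted p = 0.0664, SE 0.78), and 4.78 with length adjusted. Ifi30, a lysosomal thiol reductase that prepares antigens for MHC class II, stood at 1308, 587 and 626 CPM in microbead and 195, 326, 178 and 150.1 CPM in sham, with a log2 fold change of 1.98 (adjusted p = 0.0664, SE 0.37, length-adjusted 1.79). For both genes the groups did not overlap, and sham 2 was the highest sham library. Fcer1g, the signalling chain shared by Fc receptors, stood at 4628, 1509 and 1825 CPM in microbead and 884, 769, 888 and 899 CPM in sham, with a log2 fold change of 1.62 (adjusted p = 0.0664, SE 0.31), which was 0.78 with length adjusted. Ifi27l2a, an interferon-induced gene, stood at 481, 264 and 93.8 CPM in microbead and 27.9, 43.9, 38.0 and 25.2 CPM in sham, with a log2 fold change of 3.05 (adjusted p = 0.0664, SE 0.59) and 1.64 with length adjusted. In both, microbead 1 was the highest library and the groups did not overlap. Fcer1g and Ifi27l2a have transcripts of 673 and 463 bases.

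The ferritin chains store iron. Fth1 stood at 4893, 3683 and 3438 CPM in microbead and 1959, 1897, 1813 and 1778 CPM in sham and Ftl1 at 3868, 5039 and 3966 CPM in microbead and 1612, 1968, 2163 and 1984 CPM in sham. Their log2 fold changes were 1.10 (adjusted p = 0.0725, SE 0.23) and 1.15 (adjusted p = 0.0708, SE 0.24), and 0.68 and 0.87 with length adjusted. Slc40a1 encodes ferroportin, the exporter that carries iron out of cells, and stood at 17.2, 8.37 and 14.8 CPM in microbead and 77.3, 99.7, 73.0 and 62.6 CPM in sham. Its log2 fold change was -2.55 (adjusted p = 0.0725, SE 0.54), and -1.98 with length adjusted. Storage and export genes thus lay on opposite sides without overlap between the groups, though none of the 3 passed. Of 17 iron genes tested, 3 lay above and 1 below without overlap. The transferrin receptor Tfrc stood at 0, 1.12 and 0 CPM in microbead and 0.893, 25.9, 0.455 and 11.3 CPM in sham, read in microbead 2 alone of the microbead libraries.

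Among genes with negative fold changes, the smallest p belonged to Sirpa (chromosome 2, 129592835 to 129632228, plus strand), the receptor for the CD47 signal that restrains phagocytosis. It stood at 274, 688 and 536 CPM in microbead and 1015, 1359.8, 1447 and 1844 CPM in sham, with a log2 fold change of -1.50 (adjusted p = 0.0664, SE 0.29) and -1.10 with length adjusted. The groups did not overlap. Cmtm6, which keeps the checkpoint ligand PD-L1 at the cell surface, stood at 43.1, 23.4 and 222 CPM in microbead and 456, 803, 532 and 714 CPM in sham, with a log2 fold change of -2.69 (adjusted p = 0.0745, SE 0.59, length-adjusted -2.27). Elmo1, which links engulfment receptors to Rac, stood at 151, 262 and 340.0 CPM in microbead and 629, 639, 695 and 642 CPM in sham, with a log2 fold change of -1.37 (adjusted p = 0.0951, SE 0.32, length-adjusted -0.94). In both genes the highest library of the microbead group was microbead 3, still below each sham library. Others of this set without overlap were Tacc1 (-1.52, SE 0.31, length-adjusted -1.12), Serinc3 (-1.21, SE 0.27, length-adjusted -0.70), Plxdc2 (-1.34, SE 0.30, length-adjusted -0.93) and Ivns1abp (-1.12, SE 0.26, length-adjusted -0.62), given as log2 fold changes. Tmem18 stood at 0, 0.335 and 0 CPM in microbead and 29.3, 6.88, 34.3 and 26.3 CPM in sham and Pdia5 at 0.718, 0.223 and 0 CPM in microbead and 34.1, 1.05, 32.9 and 25.8 CPM in sham, and in both the microbead libraries held next to no reads.

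**Figure D2:**
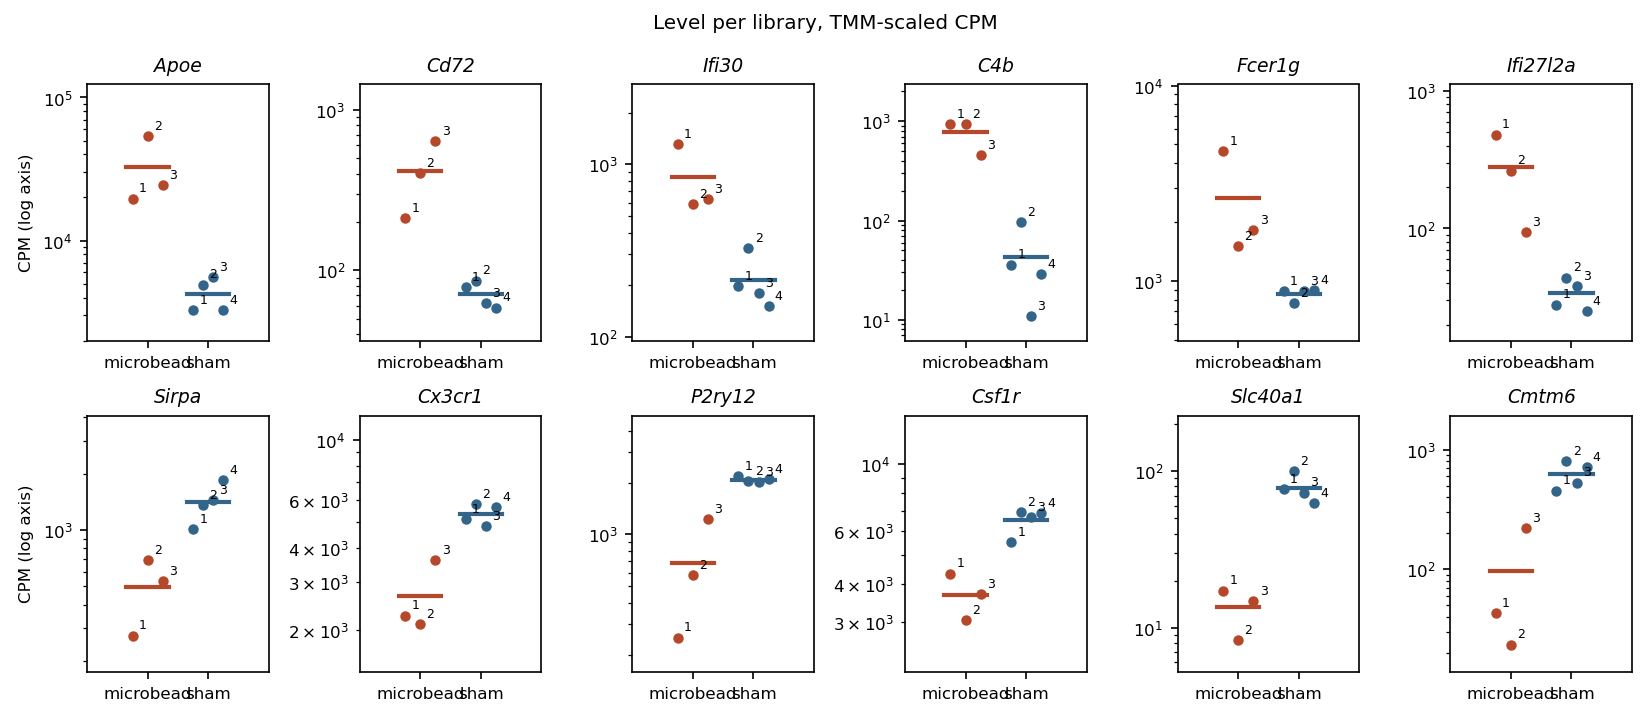
TMM-scaled CPM of 12 genes in each library (log axis); points carry the library number and lines mark group means. Apoe and Cd72 passed the test; in all 12 genes every microbead library lies on the same side of every sham library.

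Gene lists were described by the number of members whose groups do not overlap, to be read against 5.11% above and 7.08% below over all genes tested, and by the median log2 fold change, to be read against -0.12 (0.04 with length adjusted). Leaving aside markers of other cell types, the medians ran from -0.51 for cell cycle genes to 1.57 for proteins of the small ribosomal subunit. Length adjustment moved the homeostatic list from -0.45 to -0.03 and the Toll-like receptor list from -0.47 to 0.02, whereas the MGnD list went from 0.93 to 0.79 and the interferon list from 0.58 to 0.74.

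**Figure D3:**
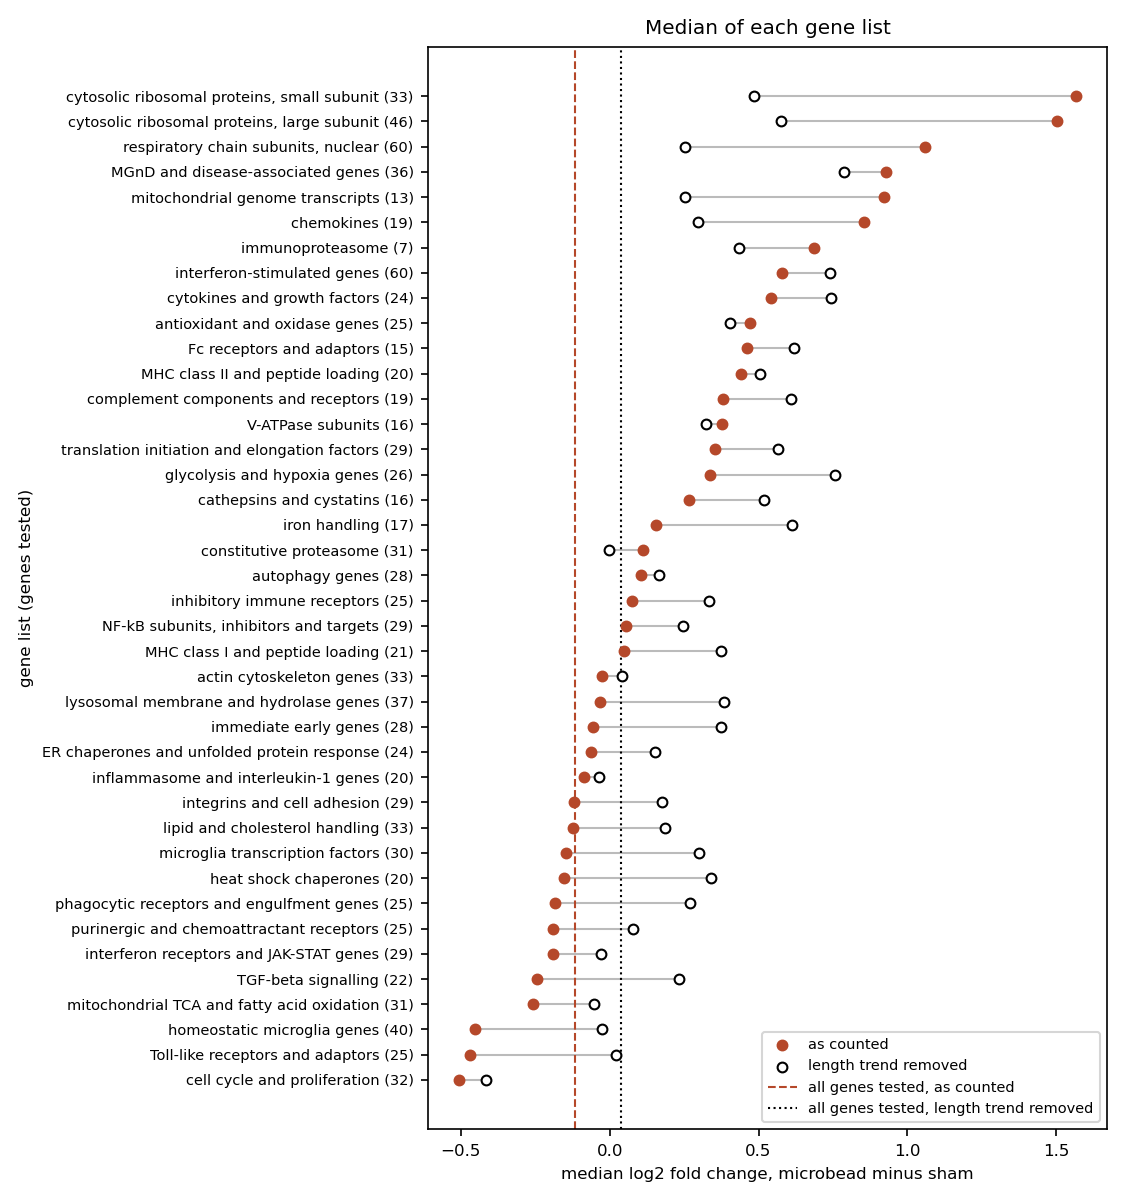
Median log2 fold change (microbead minus sham) of each gene list as counted (filled) and with the length trend removed (open), with the medians of all genes tested as vertical lines. Ribosomal and respiratory chain lists move most towards zero, and the MGnD and interferon-stimulated lists stay at 0.79 and 0.74.

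The homeostatic list had 0 of 40 genes above and 10 of 40 below. P2ry12, the ADP receptor that steers microglial processes, stood at 251, 577 and 1229.7 CPM in microbead and 2184, 2042, 2013 and 2084 CPM in sham. Its log2 fold change was -1.60 (adjusted p = 0.168, SE 0.44), and -1.66 with length adjusted. The sham libraries were nearly level, while the microbead libraries spread over a wide range below them. Cx3cr1, the receptor for neuronal fractalkine, stood at 2264, 2106 and 3626 CPM in microbead and 5125, 5822, 4820.0 and 5658 CPM in sham, and Csf1r, the survival receptor of microglia, at 4326, 3028 and 3710.2 CPM in microbead and 5517, 6925, 6668 and 6870.2 CPM in sham. Their log2 fold changes were -1.01 (adjusted p = 0.0745, SE 0.22) and -0.82 (adjusted p = 0.104, SE 0.20), which length adjustment brought to -0.50 and -0.28. Gpr34, a lysophosphatidylserine receptor, stood at 142, 477 and 1016 CPM in microbead and 1563, 1545, 1139 and 1301 CPM in sham, and Selplg, a selectin ligand, at 1426, 2234 and 3608 CPM in microbead and 4446, 4087, 4053 and 4397 CPM in sham. Others below without overlap were P2ry13, Tgfbr1, Smad3 and Cd164, with log2 fold changes from -1.56 for Smad3 to -0.77 for Tgfbr1.

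Other homeostatic genes overlapped between the groups. Tmem119, a surface marker of microglia, stood at 1209, 1565 and 2671 CPM in microbead and 2689, 3082, 2422 and 3011 CPM in sham, with a log2 fold change of -0.63 (adjusted p = 0.425, SE 0.24, length-adjusted -0.22). Microbead 3 lay within the sham range and microbead 1 and 2 under it. Sall1, the transcription factor that holds microglial identity, stood at 162, 299 and 389.7 CPM in microbead and 395, 347, 429 and 382 CPM in sham, with a log2 fold change of -0.45 (adjusted p = 0.756, SE 0.36, length-adjusted -0.06). Olfml3 (0.13, SE 0.29, length-adjusted 0.54), Sparc (0.38, SE 0.23, length-adjusted 0.88) and Siglech (-0.17, SE 0.22, length-adjusted 0.10) had small log2 fold changes of either sign. By the mean log2 level over the list, relative to the sham mean, the microbead libraries stood at -0.68, -0.73 and -0.25 and the sham libraries between -0.11 and 0.08. The summed level of the list overlapped, from 48548 to 80909 CPM in microbead and from 75741 to 83314 CPM in sham.

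Of the 36 MGnD genes tested, 12 lay above and 1 below, and Apoe alone passed. Cd63, a tetraspanin of lysosomes and exosomes, stood at 664, 902 and 811 CPM in microbead and 263, 368, 274 and 250.2 CPM in sham, with a log2 fold change of 1.46 (adjusted p = 0.0731, SE 0.31) and 1.06 with length adjusted. Gpnmb, a glycoprotein of lipid-loaded phagocytes, stood at 14.4, 106 and 516 CPM in microbead and 0.446, 0, 0.835 and 0 CPM in sham. Lgals3, the gene of galectin-3, stood at 111, 111 and 184 CPM in microbead and 0, 40.2, 0 and 0 CPM in sham. Gpnmb was next to absent in all sham libraries, and Lgals3 was read in sham 2 alone. Fabp5, a fatty acid carrier, stood at 30.9, 118 and 104 CPM in microbead and 0, 15.8, 0 and 0 CPM in sham, and Cst7, a cathepsin inhibitor, at 94.1, 124 and 58.0 CPM in microbead and 6.36, 18.6, 4.40 and 29.1 CPM in sham. Both were above sham in each microbead library, and Fabp5 too was read only in sham 2 among sham libraries. Cd52, Ccl2, Tyrobp, Fth1, B2m and Ctsl were the rest of the 12.

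Several genes by which the state is often recognised did not separate the groups. Trem2, the lipid receptor that drives the state, stood at 1629, 2038 and 2278 CPM in microbead and 1743, 1653, 1601 and 1655 CPM in sham, with a log2 fold change of 0.25 (adjusted p = 0.808, SE 0.23, length-adjusted 0.20). Clec7a, which encodes the glucan receptor dectin-1, stood at 66.1, 218 and 192 CPM in microbead and 304, 213, 229.7 and 143 CPM in sham, with a log2 fold change of -0.48 (adjusted p = 0.9, SE 0.64, length-adjusted -0.35). Axl, a receptor for apoptotic cells, stood at 118, 303 and 84.4 CPM in microbead and 139, 154, 165 and 151 CPM in sham. In these 3 genes the libraries of the groups were mixed. Itgax, the gene of CD11c, stood at 24.4, 118 and 46.4 CPM in microbead and 37.8, 22.97, 61.4 and 50.2 CPM in sham, and Lpl, a lipase, at 19.4, 34.1 and 47.7 CPM in microbead and 24.7, 22.7, 21.9 and 49.95 CPM in sham. Spp1, which encodes osteopontin, was read in microbead 2 alone, at 62.7 CPM, and Igf1 in microbead 2 (31.9 CPM), sham 3 (2.81) and sham 4 (2.15). Cd9, a tetraspanin, was the 1 member below, at 218, 1132 and 1207 CPM in microbead and 1446, 1347, 1340.0 and 1687 CPM in sham. By the mean over the list, the microbead libraries stood at 0.57, 1.55 and 1.19 and the sham libraries between -0.29 and 0.19.

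**Figure D4:**
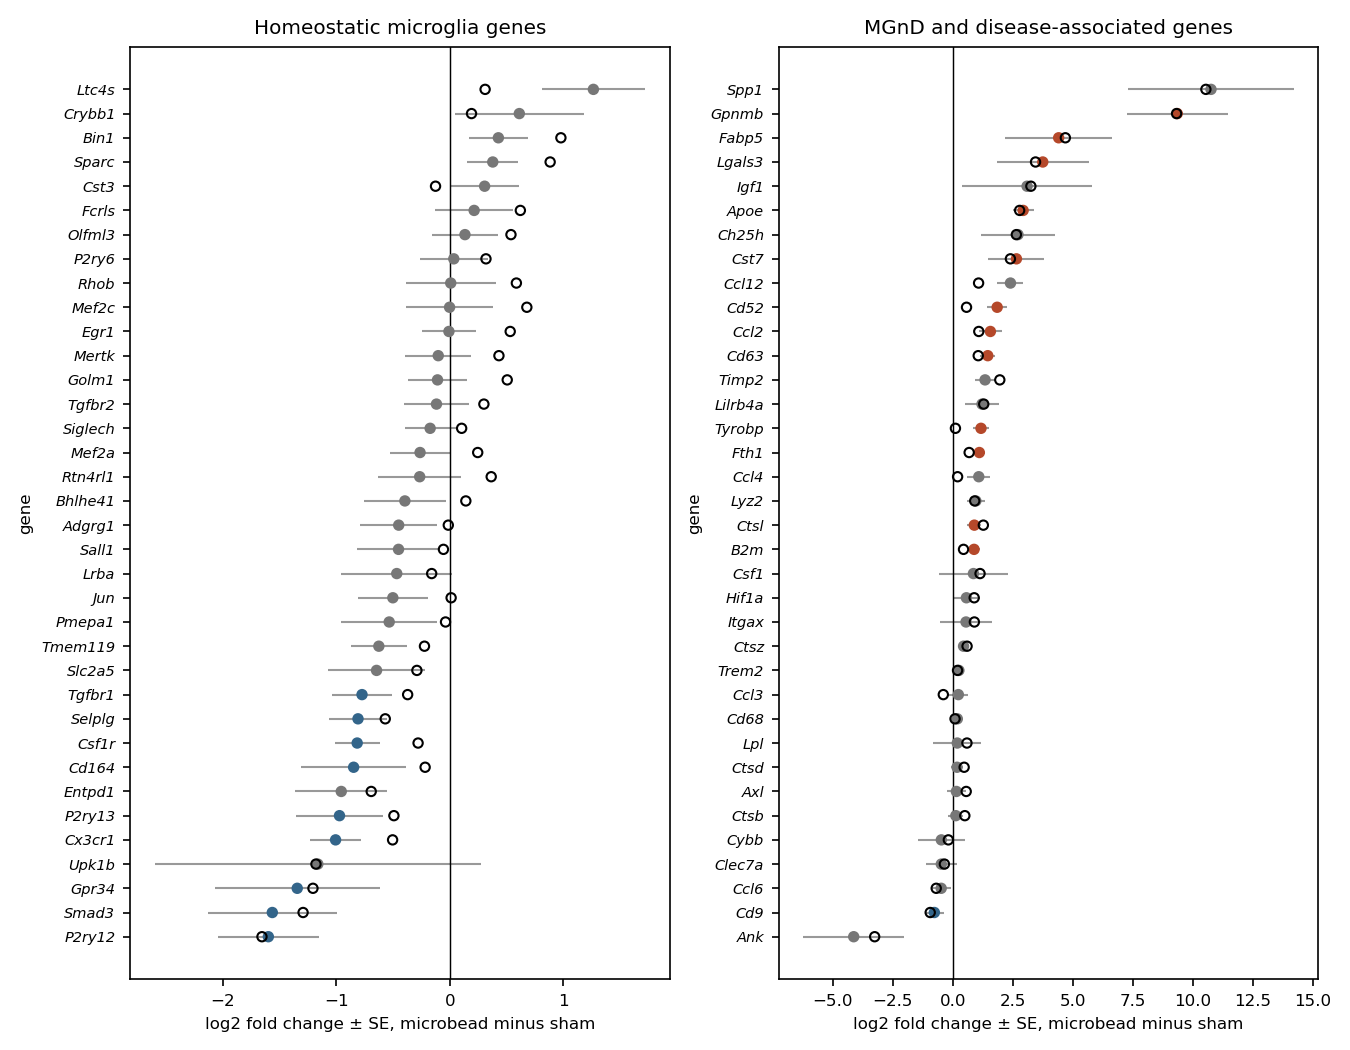
Log2 fold change ± SE of the homeostatic (left) and MGnD (right) genes with a mean of at least 10 CPM in either group, a few genes left out; red or blue points mark genes whose microbead libraries all lie above or below all sham libraries, grey points genes that overlap, and open circles length-adjusted values. Apoe has a short error bar at 2.93, while Spp1 and Gpnmb have wide ones.

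TGF-beta keeps microglia homeostatic, and of 22 genes of its pathway tested 2 lay above and 3 below. The type 1 receptor Tgfbr1 stood at 316, 514 and 311 CPM in microbead and 639.6, 678, 650.3 and 635 CPM in sham, with a log2 fold change of -0.77 (adjusted p = 0.345, SE 0.27, length-adjusted -0.37), while the type 2 receptor Tgfbr2 stood at 339.7, 529 and 592 CPM in microbead and 519.6, 424, 594 and 577 CPM in sham. The first did not overlap between the groups and the second did. The signal carriers Smad3 and Smad4 stood at 4.31, 58.6 and 34.4 CPM in microbead and 131, 65.9, 88.5 and 104 CPM in sham and at 10.8, 11.3 and 8.17 CPM in microbead and 46.4, 26.3, 30.0 and 28.9 CPM in sham. Smad7, the feedback inhibitor of the pathway, stood at 73.2, 73.3 and 47.9 CPM in microbead and 32.0, 32.0, 32.6 and 35.3 CPM in sham. Thus carriers lay below sham and the inhibitor above, with adjusted p from 0.381 to 0.598. Among 30 transcription factors of microglia, Spi1 (PU.1, -0.29, SE 0.38, length-adjusted -0.49), Irf8 (-0.08, SE 0.22, length-adjusted 0.42), Runx1 (0.13, SE 0.28, length-adjusted 0.72) and Mef2c (0.00, SE 0.38, length-adjusted 0.68) had log2 fold changes between -0.29 and 0.13. Id2, an inhibitor of helix-loop-helix factors, stood at 402, 186 and 217 CPM in microbead and 130.0, 146, 55.8 and 108 CPM in sham, above sham in each library, with a log2 fold change of 1.28 (adjusted p = 0.327, SE 0.44, length-adjusted 1.52).

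Of 25 inhibitory immune receptors, 2 lay above and 5 below. Beside Cd72, Cd300lf, a receptor for phospholipids, stood at 125, 133 and 101 CPM in microbead and 32.7, 25.4, 4.25 and 1.43 CPM in sham, with a log2 fold change of 2.91 (adjusted p = 0.289, SE 0.93, length-adjusted 3.42). Those below were Sirpa, the sialic acid receptor Cd33 (-1.01), the checkpoint receptors Havcr2 (-1.24) and Vsir (-0.69) and the phosphatase Inpp5d (-0.41), as log2 fold changes with adjusted p from 0.0664 to 0.561. With length adjusted, Inpp5d alone of these 5 turned positive, at 0.14. Cd33 stood at 233, 332 and 405 CPM in microbead and 553, 627, 660.3 and 769.6 CPM in sham. Havcr2, also named TIM-3, stood at 64.6, 142 and 97.0 CPM in microbead and 267, 233, 237 and 224 CPM in sham. The microbead libraries of both lay under all sham libraries.

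The Fc receptor list had 5 of 15 genes above and 2 below. Fcgr1, the high-affinity receptor for IgG, stood at 819, 700.0 and 844 CPM in microbead and 471, 285, 338 and 349 CPM in sham, with a log2 fold change of 1.13 (adjusted p = 0.0808, SE 0.26) and 1.55 with length adjusted. Fcgr4 stood at 177, 176 and 279.5 CPM in microbead and 66.5, 76.7, 124 and 97.9 CPM in sham, with a log2 fold change of 1.21 (adjusted p = 0.254, SE 0.37). Neither gene overlapped between the groups, and the length-adjusted value of Fcgr4 was 1.23. Tyrobp, the adaptor of Trem2, stood at 3242, 1336 and 1460.3 CPM in microbead and 877, 872, 987 and 830.5 CPM in sham, with a log2 fold change of 1.17 that became 0.11 with length adjusted. The inhibitory receptor Fcgr2b and the receptor Fcgr3 overlapped, with log2 fold changes of 0.57 (SE 0.36, length-adjusted 0.63) and 0.21 (SE 0.28, length-adjusted 0.29). Lyn, a kinase that acts below these receptors, stood at 92.6, 214 and 324 CPM in microbead and 419, 559.5, 368 and 622 CPM in sham, under sham in each library.

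Receptors for nucleotides and chemoattractants had 1 of 25 above and 7 below. Adora1, the A1 adenosine receptor, stood at 187, 150.5 and 94.0 CPM in microbead and 31.7, 27.2, 11.1 and 2.29 CPM in sham, with a log2 fold change of 2.99 (adjusted p = 0.273, SE 0.94, length-adjusted 3.49), and was the 1 above. Beside P2ry12, P2ry13, Cx3cr1 and Gpr34, those below included the platelet-activating factor receptor Ptafr (-0.53) and the leukotriene receptor Cysltr1 (-1.34). Complement receptors C3ar1 (0.26, SE 0.27, length-adjusted 0.72) and C5ar1 (-0.12, SE 0.49, length-adjusted 0.17) overlapped. Toll-like receptors and adaptors had 1 of 25 above and 4 below. Tlr5 was read in no microbead library and at 7.47, 4.57, 9.94 and 2.72 CPM in sham, and Tlr6 stood at 6.46, 0.335 and 9.40 CPM in microbead and 13.3, 50.4, 67.1 and 67.7 CPM in sham. Tlr2 (-0.31, SE 0.66, length-adjusted 0.07), Tlr4 (-0.75, SE 0.71, length-adjusted -0.06) and Tlr7 (-0.78, SE 0.44, length-adjusted -0.57) overlapped. Ly86, the partner of the receptor Cd180, was the 1 above, at 2038, 1522 and 2955 CPM in microbead and 1422, 1226, 1374 and 1269 CPM in sham.

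No gene of 25 for phagocytosis and engulfment lay above sham and 6 lay below. Pros1, the bridging protein S, stood at 12.2, 75.5 and 182 CPM in microbead and 248, 280.4, 277 and 266 CPM in sham, with a log2 fold change of -1.56 (adjusted p = 0.387, SE 0.57, length-adjusted -1.25). Stab1, a scavenger receptor, stood at 127, 197 and 217 CPM in microbead and 325, 327, 409 and 349 CPM in sham. Elmo1 and Vav1, which acts on Rac, were also below sham in each library, and Vav1 turned positive with length adjusted, at 0.26. Mertk, the receptor that takes up dying cells, stood at 604, 423 and 285 CPM in microbead and 490.0, 520.5, 326 and 540.0 CPM in sham and overlapped. The integrin chains for vitronectin diverged, with Itgav at 34.5, 22.6 and 27.2 CPM in microbead and 32.1, 68.6, 93.9 and 88.9 CPM in sham and Itgb5 at 935, 1126 and 434 CPM in microbead and 414, 368, 476 and 369 CPM in sham. Both overlapped between the groups, with log2 fold changes of -1.34 (SE 0.52, length-adjusted -0.73) and 1.03 (SE 0.44, length-adjusted 1.60).

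Among 19 complement genes, 3 lay above and 2 below. C1qb, a chain of the initiating complex, stood at 7403, 8402 and 8718 CPM in microbead and 5635, 4993, 4773 and 4953 CPM in sham, with a log2 fold change of 0.68 (adjusted p = 0.203, SE 0.20, length-adjusted 0.55). The chain C1qa stood at 3359, 4530.4 and 5982 CPM in microbead and 3553, 3589, 3476 and 3579 CPM in sham and C1qc at 3727, 1628 and 2539.7 CPM in microbead and 1644, 1274, 2916 and 3749.5 CPM in sham. C1qb was above sham in each microbead library, whereas C1qa and C1qc overlapped. C4a, a near-identical neighbour of C4b, stood at 2.15, 7.92 and 21.6 CPM in microbead and 0, 0.351, 0.759 and 0.859 CPM in sham, and reads of the pair may be split between them.

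Chemokines had 4 of 19 above and 0 below. Ccl2, which attracts monocytes, stood at 479.7, 309 and 539 CPM in microbead and 128, 223, 89.5 and 157 CPM in sham, with a log2 fold change of 1.57 (adjusted p = 0.256, SE 0.48, length-adjusted 1.08). Ccl5 stood at 103, 58.7 and 73.5 CPM in microbead and 10.5, 3.79, 8.73 and 20.7 CPM in sham, and Cxcl13, which attracts B cells, at 71.8, 14.6 and 51.6 CPM in microbead and 0, 1.62, 0 and 0 CPM in sham. Each was above sham in each microbead library, and Cxcl13 was read in sham 2 alone among sham libraries. Cxcl16 stood at 320.3, 285 and 290.0 CPM in microbead and 98.2, 217, 171 and 174 CPM in sham. Ccl12, a further monocyte attractant, stood at 4599.7, 485 and 1725 CPM in microbead and 419.9, 742, 356 and 199 CPM in sham, with a log2 fold change of 2.40 (adjusted p = 0.0783, SE 0.54, length-adjusted 1.07), and microbead 2 lay under sham 2. Ccl3 (0.23, SE 0.42, length-adjusted -0.40) and Ccl4 (1.08, SE 0.47, length-adjusted 0.20) overlapped. The median of the list went from 0.86 to 0.30 with length adjusted.

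Of 24 cytokines and growth factors, 3 lay above and 1 below. Il1b stood at 158, 64.9 and 61.7 CPM in microbead and 17.7, 31.1, 7.28 and 7.09 CPM in sham, with a log2 fold change of 2.58 (adjusted p = 0.548, SE 1.38, length-adjusted 2.62). Mif, a macrophage inhibitory factor, stood at 229.8, 108 and 73.8 CPM in microbead and 22.3, 40.0, 33.1 and 30.2 CPM in sham, and Grn, which encodes the lysosomal protein progranulin, at 1751, 2934 and 2347 CPM in microbead and 1672, 1484, 1428 and 1709 CPM in sham. These 3 did not overlap between the groups. Tnf stood at 119, 203 and 322 CPM in microbead and 135, 289.7, 117 and 213 CPM in sham and Il1a at 148, 98.2 and 222 CPM in microbead and 145, 191, 187 and 67.6 CPM in sham, mixed between groups, and Il6 at 0, 0 and 4.92 CPM in microbead and 21.3, 17.4, 6.98 and 16.4 CPM in sham, below sham. Pycard, the adaptor of inflammasomes, stood at 1005, 453 and 601 CPM in microbead and 253, 238, 249 and 299 CPM in sham, above sham in each library (adjusted p = 0.108), while the sensor Nlrp3 stood at 163, 64.5 and 80.8 CPM in microbead and 85.7, 88.3, 76.6 and 84.2 CPM in sham and the pore protein Gsdmd at 94.1, 80.7 and 149 CPM in microbead and 225, 174, 213 and 188 CPM in sham. Of 20 inflammasome and interleukin-1 genes, 2 lay above and 5 below, and of 29 NF-kB genes 3 and 2.

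MHC class II genes, which present peptides to CD4+ T cells, varied widely within both groups. H2-Aa stood at 366, 837 and 1699 CPM in microbead and 220.1, 846, 169.6 and 84.7 CPM in sham, H2-Ab1 at 509, 1115 and 2852 CPM in microbead and 445, 1437, 277 and 121 CPM in sham and H2-Eb1 at 391, 778 and 1132 CPM in microbead and 173, 644, 108 and 94.0 CPM in sham. In each, sham 2 exceeded microbead 1 and stood well above the other sham libraries. The log2 fold changes were 1.55 (adjusted p = 0.547, SE 0.82), 1.39 (adjusted p = 0.538, SE 0.72, length-adjusted 1.18) and 1.59 (adjusted p = 0.646, SE 1.03, length-adjusted 1.44). Of 20 genes of the list, 1 lay above, which was Ifi30, and 0 below. Some markers of infiltrating monocytes, macrophages and dendritic cells appeared in the same libraries, and others did not. Ccr2, the receptor that brings monocytes into tissue, stood at 0, 25.3 and 21.7 CPM in microbead and 0, 40.2, 0 and 0 CPM in sham, Cd209a at 0, 7.36 and 46.4 CPM in microbead and 0, 85.5, 0 and 0 CPM in sham and Fn1 at 0, 111 and 38.3 CPM in microbead and 0, 14.3, 8.50 and 0 CPM in sham. Sham 2, microbead 2 and microbead 3 held reads of Ccr2, and microbead 1 held none. Other members of these lists did not follow this order. Zbtb46, of the dendritic list, stood at 4.31, 0.669 and 0 CPM in microbead and 21.4, 28.8, 20.2 and 29.1 CPM in sham. Batf3 stood at 94.8, 33.4 and 21.9 CPM in microbead and 11.5, 38.5, 19.1 and 16.2 CPM in sham. Ccr1 stood at 47.4, 23.8 and 76.7 CPM in microbead and 66.8, 80.3, 73.0 and 2.72 CPM in sham.

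Over all 21 markers of infiltrating monocytes and macrophages, 14 were tested, 1 lay above and 0 below, and their median log2 fold change was 0.70. Their summed level ran from 132 to 301 CPM in microbead and from 22.5 to 341 CPM in sham. The defining genes Ly6c2, Chil3, Ear2 and F10 had no read. These cells' part in the levels of MHC class II and chemokine genes was not tested.

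**Figure D5:**
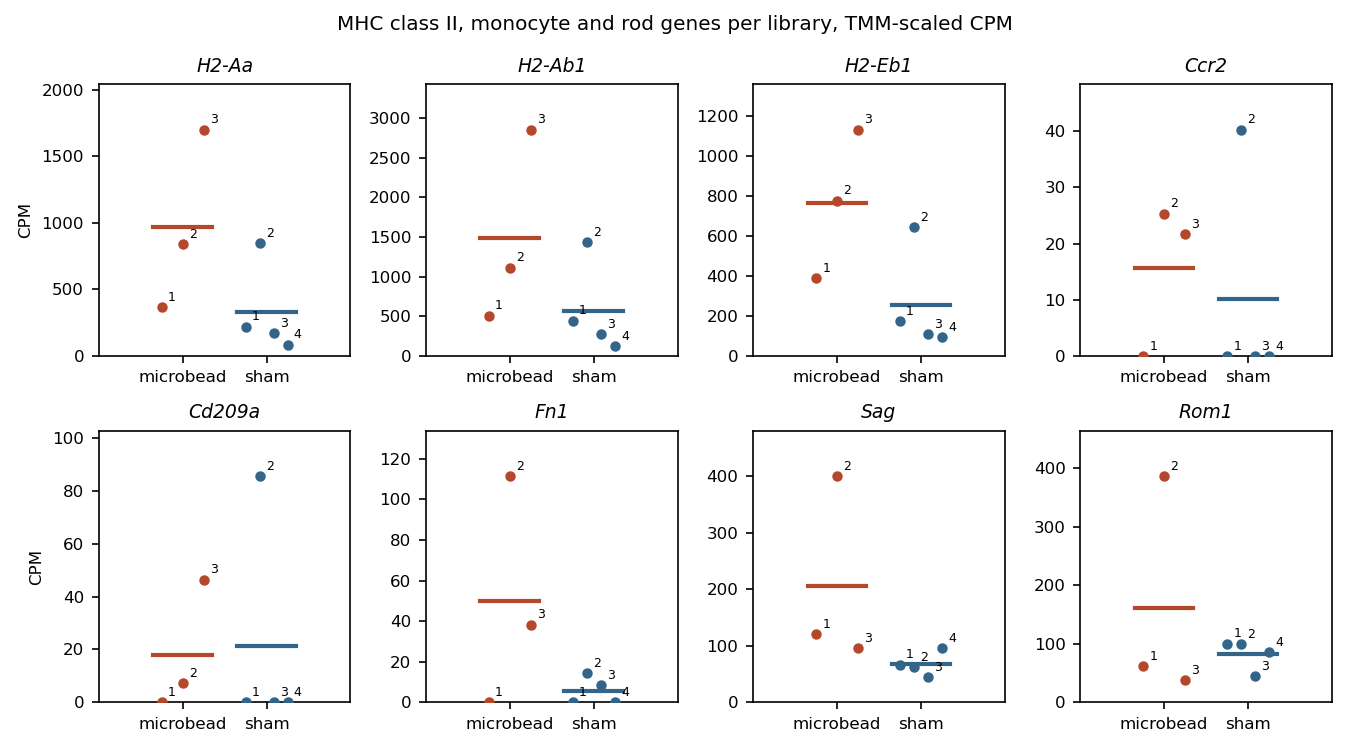
TMM-scaled CPM of MHC class II, monocyte and rod genes in each library (linear axes from 0), with library numbers and group means as lines. Sham 2 stands with microbead 2 and 3 for H2-Aa, H2-Ab1, H2-Eb1 and Ccr2, and microbead 2 is highest for the rod genes Sag and Rom1.

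MHC class I genes, which present peptides to CD8+ T cells, had 3 of 21 above and 1 below. B2m, the light chain, stood at 3735, 2753 and 3142 CPM in microbead and 1861, 1694, 1883 and 1515 CPM in sham, with a log2 fold change of 0.88 (adjusted p = 0.187, SE 0.25, length-adjusted 0.45). H2-D1 stood at 1315, 2962 and 2579.7 CPM in microbead and 1257, 1311, 1430.4 and 1025 CPM in sham and H2-K1 at 921, 2557 and 2194 CPM in microbead and 1459, 1506, 1411 and 1305 CPM in sham. B2m was above sham in each microbead library, whereas microbead 1 overlapped sham in H2-D1 and lay below all of them in H2-K1. Of 7 genes of the immunoproteasome, which cuts those peptides, 5 lay above and 0 below. Psmb9 stood at 147, 127 and 101 CPM in microbead and 45.0, 49.8, 66.5 and 68.7 CPM in sham, with a log2 fold change of 1.12 (adjusted p = 0.395, SE 0.42, length-adjusted 1.15), and Psmb10 at 157, 109 and 151 CPM in microbead and 62.1, 94.9, 64.6 and 78.3 CPM in sham. The rest of the 5 were Psme2, Psme2b and Pomp, with transcripts of 811, 837 and 998 bases. Their log2 fold changes of 0.65, 0.83 and 0.69 became 0.13, 0.36 and 0.43 with length adjusted. The peptide transporters Tap1 (-0.07, SE 0.52, length-adjusted 0.25) and Tap2 (-0.83, SE 0.43, length-adjusted -0.43) overlapped.

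Of 60 interferon-stimulated genes, 10 lay above and 2 below, with a median of 0.58, and 0.74 with length adjusted. Ifitm3, which restricts viral entry, stood at 437, 284 and 94.2 CPM in microbead and 73.9, 77.7, 53.1 and 68.3 CPM in sham, with a log2 fold change of 1.99 (adjusted p = 0.103, SE 0.48, length-adjusted 1.18). Slfn2 stood at 147, 159.9 and 125 CPM in microbead and 56.1, 61.0, 33.4 and 19.3 CPM in sham, and Eif2ak2, the RNA-sensing kinase PKR, at 134, 96.6 and 73.2 CPM in microbead and 28.1, 27.7, 39.5 and 48.7 CPM in sham. The groups did not overlap in these 3 genes. Oas1a, which makes the activator of RNase L, stood at 118, 134 and 130.5 CPM in microbead and 60.7, 68.0, 34.0 and 60.7 CPM in sham, and Bst2, which tethers virions, at 132, 154 and 136 CPM in microbead and 77.9, 67.6, 83.8 and 113 CPM in sham. Ly6e, Ifitm2, Oasl2, Gbp7 and Ifi27l2a were the rest of the 10. Below sham were Ifit1, at 0, 0.223 and 1.14 CPM in microbead and 3.35, 3.79, 2.12 and 15.7 CPM in sham, and Ifi203, at 0, 2.90 and 0.264 CPM in microbead and 3.24, 56.1, 5.61 and 11.3 CPM in sham. Antiviral genes such as Mx1, at 0, 88.1 and 76.5 CPM in microbead and 37.5, 26.2, 26.0 and 43.2 CPM in sham, Oas2, at 3.59, 153 and 58.9 CPM in microbead and 46.5, 58.6, 52.2 and 40.7 CPM in sham, and Irf7, at 17.2, 142 and 36.0 CPM in microbead and 7.14, 25.7, 80.6 and 61.1 CPM in sham, were highest in microbead 2 of the 7 libraries and lowest in microbead 1 within the microbead group. By the mean log2 level over the list, the microbead libraries stood at -0.77, 1.16 and 0.75 and the sham libraries between -0.42 and 0.35. By this measure microbead 1 was the lowest of the 7 and microbead 2 and 3 the highest. The summed level of the list ran from 4325 to 7026 CPM in microbead and from 3078 to 4004 CPM in sham. By the sum, each microbead library, microbead 1 included, thus lay above each sham library. Receptors and signal carriers of the interferon pathway had 0 of 29 above and 1 below.

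The interferon-stimulated response element is the site through which interferon signalling acts on such genes. The letters GAAA, then any 2 bases, then GAAA, on either strand, were looked for in the 250 bases before each RefSeq gene start (GRCm38.p6). They occur in 3.46% of 27025 genes and in 3.40% of 9531 genes tested here. Of the interferon list, 46 of 60 genes had a promoter sequence and 25 of them held the letters (54.3%), as did 3 of 16 genes of the MHC class I list and 0 of 7 of the immunoproteasome. The stretches around them are shown for the genes whose groups did not overlap, 5 above sham and then 2 below, in lower case with the matching letters in capitals, 5′ to 3′ on the strand of the gene.
Oas1a: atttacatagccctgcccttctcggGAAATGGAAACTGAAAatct
Bst2: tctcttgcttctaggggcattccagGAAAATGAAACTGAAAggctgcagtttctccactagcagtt
Gbp7: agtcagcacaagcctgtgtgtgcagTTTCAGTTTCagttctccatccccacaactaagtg
Ifitm2: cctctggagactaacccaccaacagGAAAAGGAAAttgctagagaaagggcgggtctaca
B2m: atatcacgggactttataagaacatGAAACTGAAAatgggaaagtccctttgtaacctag
Ifit1: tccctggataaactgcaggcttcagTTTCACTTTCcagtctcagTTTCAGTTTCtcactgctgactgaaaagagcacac
Ifi203: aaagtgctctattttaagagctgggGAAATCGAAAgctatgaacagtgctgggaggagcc
They lie at chr5:120907526-120907570, minus strand (Oas1a), chr8:71537562-71537627, minus strand (Bst2), chr3:142530258-142530317, plus strand (Gbp7), chr7:140955973-140956032, minus strand (Ifitm2), chr2:122147523-122147582, plus strand (B2m), chr19:34640760-34640838, plus strand (Ifit1) and chr1:173942493-173942552, minus strand (Ifi203). Oas1a and Bst2 each hold 2 overlapping matches, and Ifit1 holds 2 apart from each other. The letters thus stand in genes on both sides of sham. A match describes the letters only.

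Cathepsins and cystatins had 4 of 16 above and 0 below. Ctsh stood at 1597, 1529 and 2124 CPM in microbead and 1017, 1015, 1063 and 852 CPM in sham, with a log2 fold change of 0.83 (adjusted p = 0.114, SE 0.20, length-adjusted 0.84), and Ctsl at 1190.0, 1367 and 2234 CPM in microbead and 792, 951, 931 and 759 CPM in sham. Cstb, a cystatin that blocks cathepsins, stood at 76.1, 63.7 and 87.8 CPM in microbead and 21.6, 24.9, 44.8 and 22.6 CPM in sham. With Cst7 these were the 4, and their direction stayed with length adjusted. Ctsb (0.12, SE 0.31, length-adjusted 0.50), Ctsd (0.18, SE 0.26, length-adjusted 0.47) and Ctss (0.58, SE 0.29, length-adjusted 0.62) overlapped. Of 37 lysosomal membrane and hydrolase genes, 5 lay above and 4 below. Npc2, which moves cholesterol out of lysosomes, stood at 589.6, 1039 and 975 CPM in microbead and 518, 564, 534 and 509 CPM in sham, and its partner Npc1 at 46.7, 160.1 and 104 CPM in microbead and 84.3, 84.6, 76.0 and 102 CPM in sham. Acp5, an acid phosphatase, had no read in sham and 15.1, 19.1 and 9.75 CPM in microbead, 246-fold higher if the sham group is set at a floor of 3 counts. Such a floor does not allow for the spread between libraries. The hydrolases Man2b1, Ppt1 and Pla2g15 lay below, with log2 fold changes from -0.92 to -0.49.

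Of 33 genes of lipid and cholesterol handling, 5 lay above and 1 below. The neighbours of Apoe in its gene cluster were among them. Apoc2 had no read in sham and 58.9, 35.5 and 4.04 CPM in microbead, 551-fold higher with the same floor, and Apoc4 stood at 19.4, 7.81 and 6.24 CPM in microbead and 0, 0, 2.88 and 0 CPM in sham. Apoc1 stood at 0, 41.3 and 3.34 CPM in microbead and 0, 0, 4.93 and 0.859 CPM in sham, with no read in microbead 1, and overlapped. The exporters Abca1 (-0.04, SE 0.79, length-adjusted 0.18) and Abcg1 (0.72, SE 0.91, length-adjusted 1.46) overlapped. Ch25h, which makes 25-hydroxycholesterol, stood at 10.1, 74.6 and 48.6 CPM in microbead and 0, 4.14, 16.4 and 6.51 CPM in sham, and microbead 1 lay within the sham range. Hmgcs1, an enzyme of cholesterol synthesis, stood at 0, 5.47 and 1.67 CPM in microbead and 41.3, 42.4, 13.5 and 34.1 CPM in sham, and was the 1 below.

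Ribosomal protein genes had the highest shares without overlap, with 44 of 46 genes of the large subunit and 29 of 33 of the small subunit above and 0 below. Rpl41 stood at 2213, 943 and 521 CPM in microbead and 253, 229, 308 and 242 CPM in sham and Rps20 at 564, 355 and 302 CPM in microbead and 139.9, 118, 125 and 112 CPM in sham. Microbead 1 was the highest library in both. The medians of 1.50 and 1.57 became 0.57 and 0.49 with length adjusted, and 28 and 18 genes then lay above. Many of these genes have pseudogene copies of nearly the same sequence, and how reads were shared among them is uncertain. Of 60 nuclear genes of the respiratory chain, 25 lay above and 1 below, and of 13 transcripts of the mitochondrial genome 6 and 0. Cox4i1 stood at 1754, 541 and 499 CPM in microbead and 169.8, 219.8, 252 and 166 CPM in sham, with a log2 fold change of 2.20 that became 1.43. With length adjusted, 6 and 3 genes of the respiratory chain lay above and below, and the median went from 1.06 to 0.25. The 6 mitochondrial transcripts above were mt-Nd2, mt-Nd6, mt-Co2, mt-Co3, mt-Atp6 and mt-Atp8, which are 204 to 1038 bases long. Their log2 fold changes of 0.93, 1.76, 1.43, 1.80, 0.92 and 0.70 became 0.83, 0.49, 0.62, 1.24, 0.18 and -1.10 with length adjusted. Mitochondrial transcripts took 1.48 to 2.12% of the counts in microbead and 1.00 to 1.51% in sham.

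Of the other metabolic lists, those of glycolysis and of the tricarboxylic acid cycle stood near the background, and that of antioxidant genes did not. Glycolysis and hypoxia genes had 1 of 26 above, Gpi1, and 2 below, Pfkfb3 and Pdk1. Gpi1 stood at 303, 242 and 234 CPM in microbead and 204, 119, 177 and 135 CPM in sham, and Pfkfb3, which drives glycolysis, at 39.5, 77.6 and 51.4 CPM in microbead and 109.7, 171, 162 and 144 CPM in sham. Enzymes of the tricarboxylic acid cycle and fatty acid oxidation had 2 of 31 above and 2 below. Antioxidant and oxidase genes had 7 of 25 above and 0 below, 4 and 0 with length adjusted. Cyba, a subunit of the NADPH oxidase, stood at 883, 449 and 548 CPM in microbead and 269, 315, 373 and 360.0 CPM in sham and the peroxiredoxin Prdx5 at 408, 203 and 267 CPM in microbead and 191, 119, 144 and 96.3 CPM in sham. Both lay above sham without overlap, while Cybb, the catalytic partner of Cyba, stood at 2.15, 64.7 and 65.6 CPM in microbead and 11.2, 112, 80.4 and 44.7 CPM in sham and was mixed. With length adjusted, the log2 fold change of Cyba went from 0.93 to 0.29 and that of Prdx5 from 1.09 to 0.89.

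Genes known to respond to cell isolation mostly overlapped between the groups. Of 28 immediate early genes, 1 lay above and 0 below. Fos stood at 3268, 1593 and 2783 CPM in microbead and 2173, 2481, 1936 and 1648 CPM in sham and Egr1 at 2888, 2257 and 3573 CPM in microbead and 3212, 3448, 2342 and 2691 CPM in sham, and Ier5, at 550.1, 236 and 181 CPM in microbead and 128, 149, 154 and 125 CPM in sham, was the 1 above. Of 20 heat shock chaperones 1 lay above and 2 below, and Hspa1a stood at 106, 238 and 254 CPM in microbead and 851, 513, 193 and 146 CPM in sham, led by sham 1 and 2. The small chaperone Hspb1 was the 1 above, at 152, 12.5 and 38.7 CPM in microbead and 1.34, 11.8, 0 and 0 CPM in sham. Of 24 genes of the unfolded protein response 1 lay above and 4 below, among them Xbp1, at 92.6, 211 and 218 CPM in microbead and 267, 324, 336 and 342 CPM in sham. Cell cycle genes had 1 of 32 above and 3 below, and Mki67 stood at 0, 18.9 and 10.5 CPM in microbead and 1.23, 0.351, 7.59 and 46.5 CPM in sham, with no read in microbead 1.

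Markers of other retinal cells were checked by library. All 17 rod photoreceptor genes were tested, 1 lay above and 0 below, and their summed level ran from 729 to 5272 CPM in microbead and from 1187 to 2083 CPM in sham. Rom1, a protein of the rod outer segment, stood at 62.5, 386 and 37.4 CPM in microbead and 100.4, 99.6, 45.5 and 85.5 CPM in sham. Microbead 2 was the highest library and microbead 3 the lowest, and the range of the microbead group enclosed that of sham. Sag, which encodes rod arrestin, stood at 121, 399.8 and 95.7 CPM in microbead and 66.9, 62.1, 44.5 and 95.6 CPM in sham and was the 1 above. Of 12 cone markers 7 had no read, the opsin genes Opn1sw and Opn1mw among them, and the summed level of the list ran from 97.6 to 249.9 CPM in microbead and from 74.8 to 95.7 CPM in sham, most of it Gngt2. Gngt2, with a transcript of 593 bases, had a log2 fold change of 1.02 (SE 0.47), which became 0.02 with length adjusted. Of 14 ganglion cell markers 11 had no read, Pou4f1 and Nefl among them, and of 15 amacrine and horizontal cell markers 11 had none. Of 18 markers of border-associated macrophages 13 were tested, 2 lay above and 2 below, with a median of -1.33. Above lay Ms4a7, at 88.3, 102 and 96.3 CPM in microbead and 22.6, 51.5, 31.3 and 25.6 CPM in sham, and Wfdc17. Wfdc17 stood at 139, 132 and 51.5 CPM in microbead and 2.57, 27.7, 8.80 and 5.80 CPM in sham. Below lay Mrc1 and Stab1. Mrc1 stood at 0, 0 and 13.1 CPM in microbead and 14.8, 77.1, 64.3 and 14.6 CPM in sham, and Lyve1 was read in sham 1 and 2 only. The S100a8 and S100a9 genes of neutrophils and the Cd3e and Ms4a1 genes of lymphocytes had no read. Other members of these lists were read in every library of both groups. Ighm ran from 98.4 to 529 CPM in microbead and from 394 to 664 CPM in sham. Cd79b ran from 42.5 to 59.6 CPM in microbead and from 13.96 to 61.5 CPM in sham. Csf3r, of the neutrophil list, ran from 274 to 631 CPM in microbead and from 479 to 582 CPM in sham. Ighm, Cd79b and Csf3r overlapped between the groups. The part of these cells in the results above was not tested.

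Some genes were read in every library of one group and in none of the other. There were 13 read in all microbead and no sham libraries, of which 4 averaged at least 10 CPM: Apoc2, Acp5, the growth factor binding protein Igfbp6 and Ahnak2. There were 150 read in all sham and no microbead libraries, of which 12 averaged at least 10 CPM. Neither number was set against a share of all genes. Sarm1, which drives axon degeneration in neurons, stood at 23.3, 17.7, 13.4 and 27.5 CPM in sham. It was 148-fold lower in microbead if that group is set at a floor of 3 counts. The complement-related receptor Cd93 stood at 12.5, 9.83, 10.1 and 10.7 CPM in sham, and Mcm2, of the replication helicase, at 10.3, 12.0, 18.2 and 0.143 CPM. Microbead 1 held the fewest reads of the 7 libraries, and its part in these counts was not tested.

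Egf, the epidermal growth factor gene, was another with next to no read in sham, at 66.8, 15.6 and 1.41 CPM in microbead and 0, 0.0702, 0 and 0 CPM in sham. Malat1, a nuclear RNA, stood at 23382, 6806 and 4772 CPM in microbead and 6513, 5238, 4699 and 4708 CPM in sham, and Tsix, the antisense partner of Xist, at 529, 21.6 and 28.1 CPM in microbead and 38.7, 22.2, 18.1 and 29.5 CPM in sham. In both RNAs microbead 1 stood far above every other library of the 2 groups. The sources used here do not say whether counting used strand, so reads of Xist and Tsix cannot be told apart with certainty.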

How the data were processed

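RNA of sorted retinal microglia was measured in 14 libraries, of which 3 microbead and 4 sham libraries were compared. The authors deposited expected counts per gene, which need not be whole, with FPKM values beside them, per the file headers. Per the submitters' processing notes, mm10, DESeq2 1.30.1, R 4.0.3 and Salmon 1.4.0 were used, with no role given for each. The tool that made the deposited counts and its use of strand are not given in the sources used here. Counts were rounded and tested, and FPKM values were not tested. Gene positions and lengths came from the tables and GENCODE M21, which matched 47310 of 47729 identifiers.

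The fit used edgeR 4.0.16 (limma 3.58.1, R 4.3.3): filterByExpr with a minimum count of 10, TMM scaling, all 14 libraries by group, the quasi-likelihood test of microbead minus sham and Benjamini-Hochberg adjustment over 14279 genes, called at 0.05. All 14 libraries shared 1 estimate of the spread: the biological coefficient of variation was 1.13, with 10 residual degrees of freedom. The length trend was fitted by lowess (span 0.5) to log2 CPM, relative to the mean of all 14 libraries, against length. Genes of at least 10 CPM were used, and the trend was removed from each library through offsets. Groups do not overlap where every library of one lies above every library of the other. The fit was tested on simulated data.

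Genes were named by a rule: those called; the 12 of smallest p in each direction without overlap between the groups and with a mean of 10 CPM or more, predicted, pseudogene and ribosomal protein genes left out; up to 4 of smallest p in each list; and a fixed panel. Further genes were named after their values were seen. The members and lists were chosen with earlier results of these data known. Alternatives were DESeq2 size factors, no filter, a filter of 50 counts in 3 libraries, DESeq2 1.42.0 with its own filtering, limma voom with quality weights, the 7 libraries alone, a replicate block, each library left out, libraries under 12000 genes left out, the length trend removed and identifiers of the series table only. Promoters came from RefSeq (GRCm38.p6). Values of a few list members are not reported here.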

Additional observations from a re-analysis of the deposited data

Results flagged for a closer look

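In 14 measures 1 sham library lay far from the other 3 sham libraries, by its gap to the nearest of them relative to the range of the group. Such a rule flags about 1 in 20 groups by chance, and 193 groups of 4 sham libraries were checked. The microbead group of 3 was not checked. Sham 1 stood apart by its total of 8.502 M counts and by a mitochondrial share of 1.506%. It also stood apart in Csf1r (5517 CPM), mt-Co2 (812.3 CPM) and Msn (197.1 CPM). Sham 2 stood apart in Fcer1g (769.0 CPM), Lgals3 (40.17 CPM) and Pdia5 (1.053 CPM). Sham 3 stood apart in P2ry13 (814.9 CPM), Eif2ak3 (11.46 CPM) and Cat (4.249 CPM). Sham 4 stood apart in Cd52 (101.5 CPM), Lpl (49.95 CPM) and Mbp (17.39 CPM).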

How the results depend on the processing

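The fit called 2 genes higher and 0 lower. The number higher was 97 with no filter, 325 by DESeq2's Wald test on the same 25656 unfiltered genes, 85 by limma voom with quality weights on the filtered genes, 4 without libraries under 12000 genes, 1 with the length trend removed (Apoe), and 0 with at least 50 counts in 3 libraries or with the microbead and sham libraries only. The number lower was 42 with no filter, 286 by DESeq2, 6 by limma voom and 3 without libraries under 12000 genes. With the replicate block it was 0 higher and 0 lower, with 1060 genes at an unadjusted p under 0.05. Deviations of same-numbered libraries correlated at 0.0245, 0.0225 and 0.0015, and those of other pairs at -0.0284 to 0.0294. All were small, so whether the numbers pair the libraries cannot be told from them. Leaving out 1 library at a time gave 0 to 80 genes higher and 0 to 54 lower. Without any 1 sham library 0 passed, with 1143 to 1214 genes at an unadjusted p under 0.05, while without microbead 2 the numbers were 14 and 4 and without microbead 3 they were 80 and 54. Against 730 genes above and 1011 below without overlap, the same runs gave 856 to 1503 above and 1307 to 2462 below, and leaving out libraries under 12000 genes gave 1500 above. With fewer libraries a gene meets the rule of no overlap more readily, so these counts are not directly comparable. Any other cause of these differences was not tested. DESeq2 size factors and identifiers of the series table kept both calls. Of 226 named genes tested, 214 kept the sign of their fold change without microbead 2, 219 without microbead 1 and 219 without microbead 3. By limma voom 218 kept it, and with the length trend removed 221 did. The 1.34 M counts of microbead 1 limit genes of low level.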
